A study of Mus musculus with 19 samples.

Results

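The Zscan4 genes of mouse embryonic stem cells (ESCs) were followed across 8 culture groups by RNA sequencing. Every row of the expression table whose symbol starts with Zscan4 was taken, which gave 3 rows, Zscan4c, Zscan4d and Zscan4f, of 12942. The study compared 3 ESC lines (J-37, J-35 and J-34), each from a male by its label and grown on feeder layers of mouse embryonic fibroblasts, after transfer at passage 4 to different media, and its title names suppression of the kinases Mek1 and Mek2. Cells positive for the surface antigen SSEA1 were sorted before RNA was taken. Libraries of passage 10, after 6 passages in the medium, came from S/L (J-34 and J-35), 2i/L (J-34 and J-35), a2i/L (J-34 and J-35) and PKCi/L (J-34 and J-37). S/L+PD was sampled at passage 7, after 3 passages (J-34 and J-37). S/L and 2i/L were sampled again at passage 20, after 16 passages, and a last group had gone from 2i/L back to S/L for 3 passages, to passage 23 (all 3 lines in each). The labels do not spell out the media. In this field S/L commonly stands for serum with the cytokine LIF, 2i/L for a Mek inhibitor and a Gsk3 inhibitor with LIF, a2i for a mixture in which a Src inhibitor takes the place of the Mek inhibitor, PKCi for an inhibitor of protein kinase C, and PD for a Mek inhibitor. Each library of a group is another line in 1 culture, so spread between lines and between cultures cannot be told apart. A p-value here rests on the spread between libraries within groups, pooled over the 8 groups and moderated across genes. By their titles, 1 library of PKCi/L and 1 of S/L+PD are of line J-37, although another of their labels names J-35; the titles were followed here.

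Zscan4 proteins carry a SCAN domain and zinc fingers and are made in the mouse embryo at the two-cell stage, when its own genome is first switched on. In ESC cultures they appear briefly in rare cells, the two-cell-like state, and they are known for lengthening telomeres by recombination. The genes lie in a cluster of near-identical copies on chromosome 7, of which RefSeq lists 9 (4 of them protein coding). The copies other than Zscan4c, Zscan4d and Zscan4f were not analysed here.

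The promoter windows are shown because they show how alike the 3 measured copies are at the place where transcription starts. Each runs from 250 bases before to 50 bases after the annotated start (RefSeq, GRCm38.p6; the deposited values were made on another build, mm9). Zscan4c lies at chr7:11005495-11005794 on the plus strand, Zscan4d at chr7:11166099-11166398 on the minus strand and Zscan4f at chr7:11397665-11397964 on the plus strand. Capitals mark a TATA box, TATAAAA, and the half-site of nuclear receptors such as Esrrb, AAGGTCA, which stands here on the other strand and so reads TGACCTT.
Zscan4c: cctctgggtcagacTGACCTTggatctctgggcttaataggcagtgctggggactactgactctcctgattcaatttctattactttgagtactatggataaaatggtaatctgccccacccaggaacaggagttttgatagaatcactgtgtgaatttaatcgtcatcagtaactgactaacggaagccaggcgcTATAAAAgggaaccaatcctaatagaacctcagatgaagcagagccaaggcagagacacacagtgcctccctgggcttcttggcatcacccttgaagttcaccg
Zscan4d: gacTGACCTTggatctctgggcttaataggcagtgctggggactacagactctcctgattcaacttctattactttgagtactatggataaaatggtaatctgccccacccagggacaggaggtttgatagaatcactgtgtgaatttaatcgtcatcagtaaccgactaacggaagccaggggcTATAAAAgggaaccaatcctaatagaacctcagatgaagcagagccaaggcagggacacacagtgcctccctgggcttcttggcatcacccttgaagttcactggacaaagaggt
Zscan4f: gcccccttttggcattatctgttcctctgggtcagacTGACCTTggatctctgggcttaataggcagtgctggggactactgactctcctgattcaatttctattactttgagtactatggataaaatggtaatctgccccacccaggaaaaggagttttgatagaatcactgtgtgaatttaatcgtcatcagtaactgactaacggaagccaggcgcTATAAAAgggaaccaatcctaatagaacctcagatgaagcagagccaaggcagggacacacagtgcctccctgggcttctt
Where the windows could be laid on each other, 281 of 289 bases were the same in Zscan4c and Zscan4d (97.2%), 275 of 277 in Zscan4c and Zscan4f (99.3%) and 259 of 266 in Zscan4d and Zscan4f (97.4%), with no gap. Both motifs were chosen with these sequences in view and were searched on both strands; they do not overlap. TATAAAA begins 54, 65 and 31 bases before the annotated start of Zscan4c, Zscan4d and Zscan4f, and the half-site begins 236, 247 and 213 bases before it. The spacing between the motifs was the same in all 3 windows, and the annotated starts were what differed. Of 32851 promoter windows of this length, 5.48% hold TATAAAA and 4.72% hold AAGGTCA. A match is a run of letters and not a measured binding site.

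The likeness extends into the transcripts, so the split of reads between the copies is uncertain. Of the 100-base windows of the longest annotated transcript, 72.8% in Zscan4c (2276 bases), 29.6% in Zscan4d (2272 bases) and 89.5% in Zscan4f (1829 bases) also occur in a transcript of another Zscan4 copy. How reads that match several copies were counted is not given in the sources used here. The values below are CPM (the usual counts scaled to library size) as deposited, and all 3 rows are low. From the step between low values, 1 read was worth 0.022 to 0.0295 CPM in the 10 libraries of passages 7 and 10, and 0.0111 to 0.0201 CPM in the 6 later libraries whose depth could be read, so 1 CPM stood for 33.9 to 89.9 reads. These read numbers speak for counting error only.

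The 9 libraries of passages 20 and 23 stood apart from the 10 earlier ones. The genes listed summed to 292986 to 396883 CPM in them against 421426 to 465897 CPM, and Lars2 read 14870 to 29548 CPM against 56.9 to 3797 CPM. Comparisons between these 2 sets of libraries cross that difference. The 8 pluripotency markers measured summed to 2719 to 3410 CPM in the earlier and 1422 to 2140 CPM in the later libraries. The 18 fibroblast markers measured are called feeder markers below. Their summed level was 580 to 607 CPM in S/L at passage 10, 1252 to 1429 CPM in 2i/L, 921 to 1141 CPM in a2i/L, 919 to 955 CPM in PKCi/L and 2388 to 3327 CPM in S/L+PD. It was 370 to 431 CPM in S/L at passage 20, 953 to 1179 CPM in 2i/L and 249 to 328 CPM after the return. Only S100a4, in a2i/L, was at 0 in both libraries of a group. Single genes can carry these sums, which are therefore no plain measure of feeder RNA. From S/L at passage 10 to PKCi/L the mean of Vim went from 36.8 to 190 CPM, while that of Col1a1 went from 2.995 to 1.355 CPM.

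All 3 Zscan4 rows were highest in 2i/L. Zscan4c read 1.32 to 3.38 CPM in the 5 libraries of 2i/L and 0 to 0.73 CPM in the 14 others, and Zscan4d 2.17 to 4.79 CPM against 0 to 1.7 CPM, with no overlap. Zscan4f overlapped, at 0.6 to 1.71 CPM in 2i/L and 0 to 0.7 CPM elsewhere. The table keeps genes that reach 1 CPM in at least 3 libraries, as read from its values. Zscan4c reached 1 CPM in 5 libraries and Zscan4f in 4, all of them 2i/L, so these rows could be in the table only because they were high there. Zscan4d reached it in 8, the 5 of 2i/L and the 3 of S/L at passage 20. These are bulk samples, in which fewer cells with Zscan4 RNA and less of it per cell cannot be told apart.

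**Figure D1:**
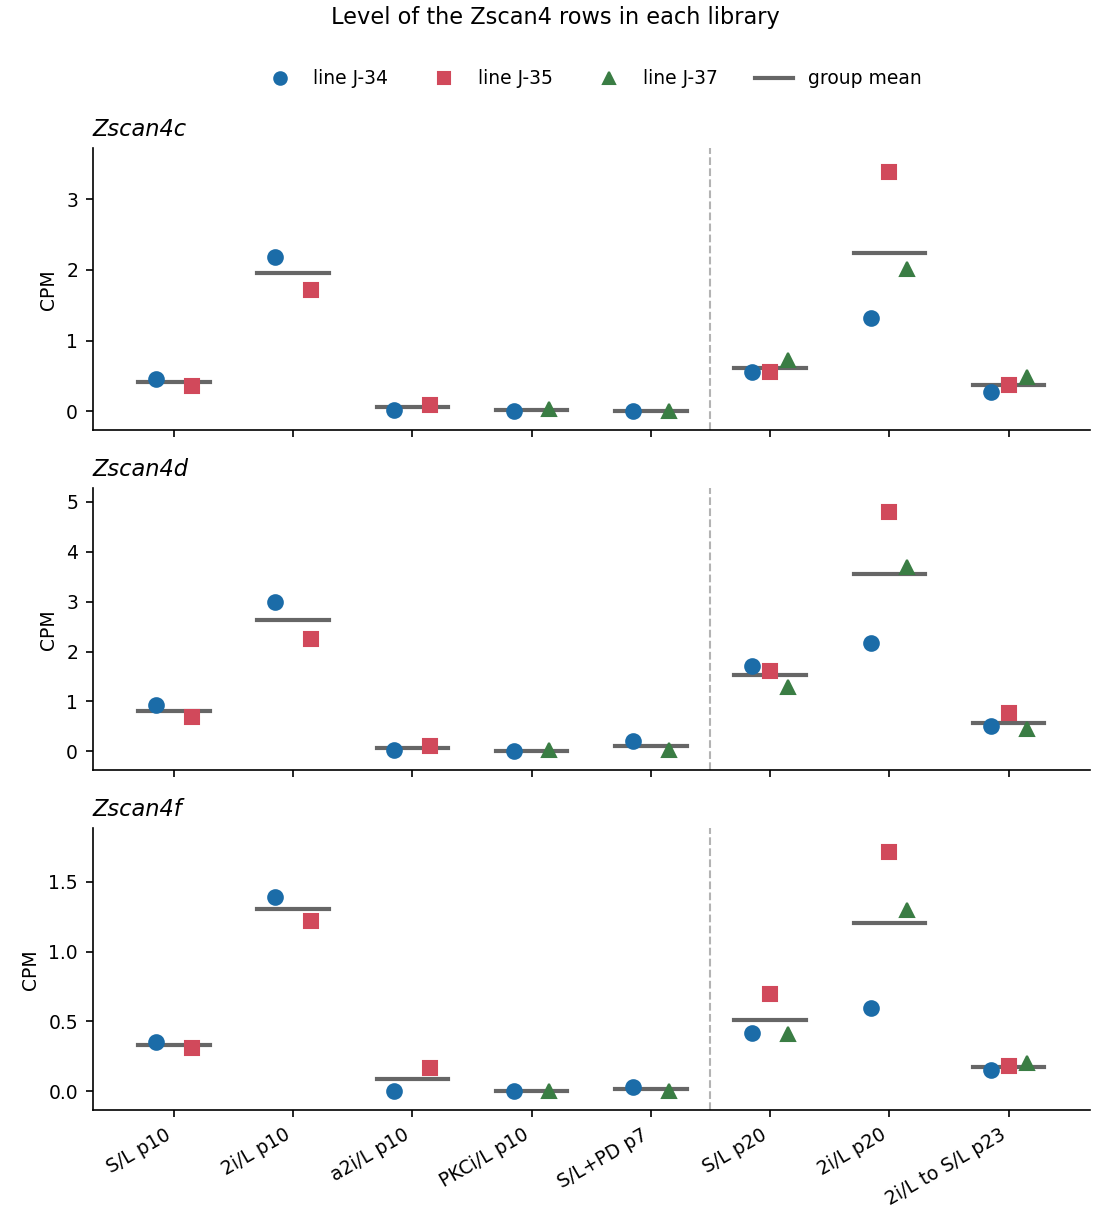
CPM of Zscan4c, Zscan4d and Zscan4f (y axes) in each of the 19 libraries by group (x axis), with a marker for each ESC line and a grey bar for the group mean; the dashed line parts the libraries of passages 7 and 10 from those of passages 20 and 23. The 2i/L groups stand highest in each panel, and a2i/L, PKCi/L and S/L+PD lie at 0 to 0.21 CPM.

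At passage 10 the 3 rows were about 3 to 5 times as high in 2i/L as in S/L. Zscan4c read 0.46 and 0.36 CPM in S/L (J-34 and J-35; 16 and 14 reads) and 2.18 and 1.72 CPM in 2i/L (99 and 76 reads). Zscan4d read 0.92 and 0.68 CPM in S/L and 2.99 and 2.26 CPM in 2i/L. Zscan4f read 0.35 and 0.31 CPM in S/L and 1.39 and 1.22 CPM in 2i/L. The groups did not overlap for any of the 3 rows, which only describes the values, as the share of all genes without overlap is not given here. Within the lines the ratios were alike, at 4.74 in J-34 and 4.78 in J-35 for Zscan4c, 3.25 and 3.32 for Zscan4d, and 3.97 and 3.94 for Zscan4f. Changes were tested with limma on log2(CPM + 0.5) across all 12942 genes, a scale that understates the change of low genes, and called at a Benjamini-Hochberg adjusted p below 0.05. Zscan4c rose by 1.42 ± 0.25 on this log2 scale (SE, n = 2 and 2; limma adjusted p = 1.87e-05), Zscan4d by 1.26 ± 0.26 (limma adjusted p = 0.000119) and Zscan4f by 1.12 ± 0.25 (limma adjusted p = 0.000515). So 3 of 3 rows were called higher, also with TMM scaling between libraries. Of all genes 22.7% were called higher and 17.5% lower (26.1% and 23.3% with TMM scaling). Zscan4c and Zscan4f could be in the table only through 2i/L, so for them a higher value there was in part built in. The rows may also share reads, so they are not 3 separate cases. Zscan4d would have been in the table without 2i/L, and only its call can be set against the shares of all genes.

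At passage 20 the rows were again higher in 2i/L in each of the 3 lines, with more spread between lines. Zscan4c read 0.56, 0.55 and 0.73 CPM in S/L (J-34, J-35 and J-37) and 1.32, 3.38 and 2.01 CPM in 2i/L. Zscan4d read 1.7, 1.6 and 1.29 CPM in S/L and 2.17, 4.79 and 3.69 CPM in 2i/L. Zscan4f read 0.42, 0.7 and 0.41 CPM in S/L and 0.6, 1.71 and 1.3 CPM in 2i/L. J-34 was the lowest 2i/L library for every row and J-35 the highest, and for Zscan4f the J-34 library lay below the J-35 library of S/L. Within J-34 the rise was 2.36-fold for Zscan4c, 1.28-fold for Zscan4d and 1.43-fold for Zscan4f, within J-35 6.15-fold, 2.99-fold and 2.44-fold, and within J-37 2.75-fold, 2.86-fold and 3.17-fold. Zscan4c rose by 1.23 ± 0.21 on the log2 scale (SE, n = 3 and 3; limma adjusted p = 3.7e-06), Zscan4d by 0.95 ± 0.21 (limma adjusted p = 0.000178) and Zscan4f by 0.71 ± 0.21 (limma adjusted p = 0.00358). Of all genes 50.0% were called higher and 12.3% lower in this comparison, and the median gene was 0.33 higher on the log2 scale, so a call is common there. With TMM scaling, which removes that shift, 32.7% of genes were called higher and 31.5% lower, and the 3 rows were still called, by 1.02, 0.66 and 0.50 (limma adjusted p = 0.000239, 0.0101 and 0.0487). For Zscan4c and Zscan4f, which could be in the table only through 2i/L, a rise was in part built in here too. Without the 2i/L library of J-35 the change of Zscan4f was 0.49 and was not called (limma adjusted p = 0.0609). Feeder markers moved with 2i/L at both passages (13 of 18 higher and 1 lower at passage 10, 14 higher and 3 lower at passage 20), and their part in the Zscan4 values was not tested.

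The size of the change in 2i/L was then compared between the passages. The change at passage 20 minus that at passage 10 was -0.19 on the log2 scale for Zscan4c (95% interval -0.86 to 0.47), -0.32 for Zscan4d (-0.98 to 0.35) and -0.41 for Zscan4f (-1.08 to 0.26). None of the 3 was called (limma adjusted p = 0.681, 0.478 and 0.341), where 29.9% of all genes were called higher and 7.10% lower (19.5% higher with TMM scaling) and the median gene had 0.29, and these intervals still allow differences of up to about 1 on the log2 scale. This comparison crosses the 2 sets of libraries.

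In a2i/L, PKCi/L and S/L+PD all 3 rows were close to 0. Zscan4c read 0.02 and 0.09 CPM in a2i/L (1 and 3 reads), 0 and 0.03 CPM in PKCi/L (0 and 1 read) and was listed at 0 in both S/L+PD libraries. Zscan4d read 0.02 and 0.11 CPM in a2i/L (1 and 4 reads), 0 and 0.03 CPM in PKCi/L (0 and 1 read) and 0.21 and 0.02 CPM in S/L+PD (7 and 1 reads). Zscan4f read 0 and 0.17 CPM in a2i/L (0 and 6 reads), was listed at 0 in both PKCi/L libraries, and read 0.03 and 0 CPM in S/L+PD (1 and 0 reads). None of the 18 values reached the lowest S/L value of its gene at passage 10, a description without the share of all genes beside it. In the J-34 library of PKCi/L no read fell on any of the 3 rows, where 0 reads allow up to 0.0708 CPM each (3 reads), and across the 5 libraries with a 0 this limit was 0.0674 to 0.0885 CPM. The 3 media are set against the same S/L libraries, so their differences are not independent.

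Against S/L at passage 10, the row that fell in all 3 media under every setting tried was Zscan4d. It changed by -1.20 ± 0.26 on the log2 scale in a2i/L (SE, n = 2 and 2; limma adjusted p = 0.000437), by -1.33 ± 0.26 in PKCi/L (limma adjusted p = 0.000101) and by -1.09 ± 0.26 in S/L+PD (limma adjusted p = 0.000854). Zscan4c was called lower in a2i/L (-0.71 ± 0.25, limma adjusted p = 0.0319), PKCi/L (-0.82 ± 0.25, limma adjusted p = 0.0127) and S/L+PD (-0.86 ± 0.25, limma adjusted p = 0.00739). In a2i/L that call was lost under TMM scaling (-0.64, limma adjusted p = 0.0555) and when any 1 of the 4 libraries was left out. In PKCi/L it was lost without the J-34 library of S/L or that of PKCi/L (-0.74 and -0.78), and in S/L+PD without the J-34 library of S/L (-0.78). Zscan4f was called lower in PKCi/L (-0.73 ± 0.25, limma adjusted p = 0.0277) and S/L+PD (-0.69 ± 0.25, limma adjusted p = 0.0324). In a2i/L, where it read 0 and 0.17 CPM, it was not called (-0.52 ± 0.25, 95% interval -1.04 to -0.0026, limma adjusted p = 0.129). Both Zscan4f calls were lost when any 1 of the 4 libraries was left out (-0.77 to -0.65), and with TMM scaling. With the ESC line as a block they were lost too, at -0.65 in PKCi/L (limma adjusted p = 0.061) and -0.60 in S/L+PD (limma adjusted p = 0.072). Over all genes 17.3% were called lower in a2i/L, 23.5% in PKCi/L and 19.3% in S/L+PD (10.7%, 5.80% and 16.4% higher), against 2, 3 and 3 of the 3 rows. With TMM scaling the split was 18.4% lower and 18.4% higher in a2i/L, 19.1% lower and 17.5% higher in PKCi/L and 20.9% lower and 23.9% higher in S/L+PD, and 1, 2 and 2 rows were called lower in the 3 media. The median gene was 0.17 lower on the log2 scale in PKCi/L. In PKCi/L and in S/L+PD 1 of the 2 libraries is of J-37 by title, where S/L has J-35, and S/L+PD also differs from S/L in passage. In S/L+PD 17 of 18 feeder markers were called higher and 0 lower, and their sum was the highest of all groups. In a2i/L 2 were called higher and 5 lower (2 and 4 with TMM scaling), and in PKCi/L 3 and 5 (3 and 2), although their sums were above those of S/L. The part of feeder RNA in the Zscan4 values was not tested.

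Set against 2i/L at passage 10, all 3 rows fell in all 3 media. Zscan4c and Zscan4f could be in the table only through 2i/L, so for them a lower value elsewhere was in part built in. The log2 differences of Zscan4c were -2.14 in a2i/L, -2.24 in PKCi/L and -2.29 in S/L+PD (SE 0.25 each; limma adjusted p = 1.63e-08, 2.52e-09 and 3.26e-09). Zscan4d differed by -2.46, -2.59 and -2.35 (SE 0.26; limma adjusted p = 8.46e-10, 1.09e-10 and 1.97e-09) and Zscan4f by -1.64, -1.85 and -1.81 (SE 0.25; limma adjusted p = 2.81e-06, 1.63e-07 and 5.12e-07). These comparisons called 23.9%, 33.2% and 20.3% of all genes lower and 11.8%, 11.5% and 12.7% higher. With TMM scaling the shares were 23.2%, 27.8% and 20.2% lower and 20.8%, 25.3% and 20.1% higher, and 3 of 3 rows were called lower in each. The median gene changed by -0.12 in a2i/L and -0.18 in PKCi/L. Of the 18 feeder markers 10 were lower and 1 higher than in 2i/L in a2i/L, 12 and 1 in PKCi/L, and 0 lower and 16 higher in S/L+PD. Their part in the Zscan4 values was not tested. Between a2i/L and PKCi/L no row was called, where 21.5% of all genes were called higher and 10.1% lower (21.8% and 19.5% with TMM scaling). The differences, a2i/L minus PKCi/L, were 0.11 for Zscan4c (95% interval -0.41 to 0.62), 0.13 for Zscan4d (-0.39 to 0.65) and 0.21 for Zscan4f (-0.31 to 0.73), on reads too few to place one above the other.

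**Figure D2:**
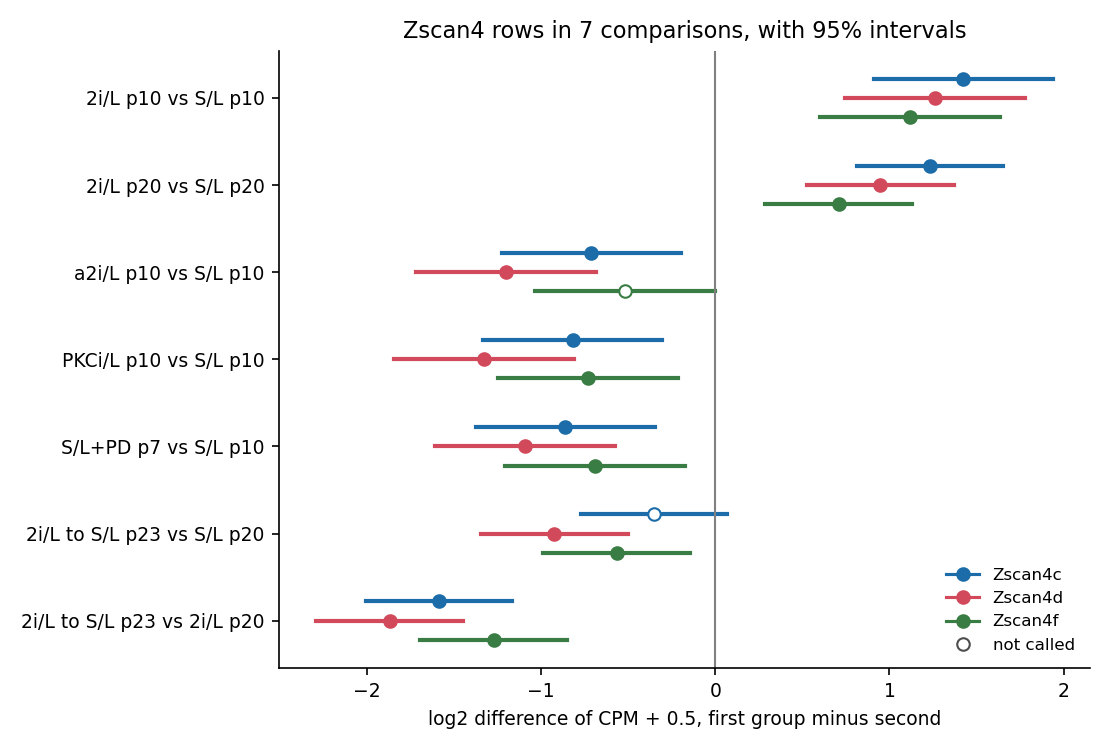
Differences of Zscan4c, Zscan4d and Zscan4f in 7 comparisons (rows) as log2(CPM + 0.5) of the first group minus the second (x axis), with limma estimates as points and 95% intervals as lines; open points were not called. Both 2i/L comparisons with S/L lie to the right of 0 (0.71 to 1.42) and the other 5 to its left, with open points for Zscan4f in a2i/L (-0.52) and Zscan4c after the return (-0.35).

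When cells went from 2i/L back to S/L for 3 passages, the Zscan4 rows fell to or below the level of cells kept in S/L. After the return Zscan4c read 0.27, 0.37 and 0.48 CPM (J-34, J-35 and J-37), Zscan4d 0.51, 0.76 and 0.45 CPM and Zscan4f 0.15, 0.18 and 0.2 CPM. Each of these 9 values was below the same line's value in 2i/L and in S/L at passage 20. The return group overlapped neither of them for any row, a description without the share of all genes beside it. Against 2i/L the fall within a line was 4.19-fold to 9.14-fold for Zscan4c, 4.25-fold to 8.2-fold for Zscan4d and 4-fold to 9.5-fold for Zscan4f. For Zscan4c and Zscan4f, which could be in the table only through 2i/L, a fall against 2i/L was in part built in. On the log2 scale Zscan4c changed by -1.58 ± 0.21 (SE, n = 3 and 3; limma adjusted p = 6.21e-08), Zscan4d by -1.87 ± 0.21 (limma adjusted p = 2.14e-09) and Zscan4f by -1.27 ± 0.21 (limma adjusted p = 4.04e-06), in a comparison that called 30.3% of all genes lower and 15.8% higher (28.0% and 26.9% with TMM scaling) and in which the median gene changed by -0.11. Feeder markers fell with the rows (13 of 18 lower and 3 higher, median -1.92), and their part in the Zscan4 values was not tested.

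Against S/L at passage 20, 2 of the 3 rows were called lower after the return, where 6.63% of all genes were called lower and 32.7% higher. Zscan4d changed by -0.92 ± 0.21 on the log2 scale (limma adjusted p = 0.000539), a fall of the mean from 1.53 ± 0.21 to 0.573 ± 0.16 CPM (SD, n = 3 each). Zscan4f changed by -0.57 ± 0.21 (limma adjusted p = 0.0287), from 0.51 ± 0.16 to 0.177 ± 0.025 CPM. That call was lost in 4 of 6 fits that left out 1 library (the J-35 library of S/L, where the change was -0.44, or any library of the return). Zscan4c was not called, at -0.35 ± 0.21 (95% interval -0.77 to 0.07, limma adjusted p = 0.179), although it was lower in 3 of 3 lines by 1.49-fold to 2.07-fold. The median gene was 0.20 higher in this comparison. With TMM scaling 22.3% of genes were called lower and 21.8% higher, and the 3 rows changed by -0.50, -1.14 and -0.73 (limma adjusted p = 0.0556, 0.000215 and 0.00952 for Zscan4c, Zscan4d and Zscan4f). Of the 18 feeder markers 6 were lower and 1 higher (9 and 1 with TMM scaling), and their part was not tested.

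Between passages, the rows in S/L were higher at passage 20 in both lines sampled at both times. Zscan4d rose by 0.64 ± 0.23 on the log2 scale (SE, n = 3 and 2; limma adjusted p = 0.0152), where 6.88% of genes were called higher and 60.3% lower and the median gene was 0.52 lower. Zscan4c (0.29 ± 0.23, limma adjusted p = 0.27) and Zscan4f (0.27 ± 0.23, limma adjusted p = 0.305) were not called. With TMM scaling 26.0% of genes were called higher and 27.3% lower, and Zscan4c was called too (0.58, limma adjusted p = 0.041). Without the J-35 library of S/L at passage 10 no row was called. In 2i/L the lines moved apart: from passage 10 to 20 Zscan4c went from 2.18 to 1.32 CPM in J-34 and from 1.72 to 3.38 CPM in J-35, and Zscan4d and Zscan4f also went down in J-34 and up in J-35. No row was called there (0.10, 0.33 and -0.14 for Zscan4c, Zscan4d and Zscan4f; limma adjusted p = 0.75, 0.243 and 0.635), where 13.6% of all genes were called higher and 37.2% lower (24.8% and 27.7% with TMM scaling) and the median gene was 0.22 lower. Whether the lines differed in this could not be tested with 1 culture each. Feeder markers were higher at passage 20 in S/L (14 of 18, 3 lower) and in 2i/L (13, 2 lower), and their part was not tested. Both comparisons cross the 2 sets of libraries.

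By mean level Zscan4c ran from 2i/L at passage 20 (2.24 ± 1.0 CPM, SD, n = 3) and passage 10 (1.95 ± 0.33 CPM, n = 2) through S/L at passage 20 (0.613 ± 0.10 CPM), S/L at passage 10 (0.41 ± 0.071 CPM) and the return (0.373 ± 0.10 CPM) to a2i/L (0.055 ± 0.050 CPM), PKCi/L (0.015 ± 0.021 CPM) and S/L+PD. Zscan4d had the same first 5 groups in the same order, from 3.55 ± 1.3 CPM to 0.573 ± 0.16 CPM. For both, the values of the 2i/L groups overlapped, as did those of S/L at passage 10 and the return. Zscan4f began with 2i/L at passage 10 (1.31 ± 0.12 CPM) and passage 20 (1.20 ± 0.56 CPM), which overlapped, and the J-34 library of the latter overlapped S/L at passage 20 (0.51 ± 0.16 CPM). The neighbours among a2i/L, PKCi/L and S/L+PD overlapped for all 3 rows.

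The summed level of the 3 rows was 4.09 to 9.88 CPM in the 2i/L libraries and 0 to 0.37 CPM in a2i/L, PKCi/L and S/L+PD. Per kilobase of the longest transcript, Zscan4d was the highest of the 3 in 12 of the 13 libraries with at least 0.5 CPM in sum, and Zscan4f was the lowest in 11. In 2i/L at passage 20 the mean levels per kilobase were 1.56 CPM for Zscan4d, 0.983 CPM for Zscan4c and 0.658 CPM for Zscan4f. The share of 100-base windows also found in another copy was lowest in Zscan4d (29.6%), then Zscan4c (72.8%) and Zscan4f (89.5%). How shared reads were counted is not given, so this order need not be that of expression, which was not tested. The Zscan4d to Zscan4c ratio per kilobase ranged from 0.939, after the return in J-37, to 3.04. In CPM, which changes this ratio little because the transcripts are of nearly the same length, it was 1.77 to 3.04 in the 5 S/L libraries and 1.31 to 1.84 in the 5 of 2i/L, which overlap, and the difference was not tested. Across the 19 libraries the log2 levels of the pairs had a Pearson r of 0.960 to 0.971, a description of rows that share libraries, depth and possibly reads.

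Other genes of the two-cell stage were read from a list of 64, of which 13 were in the table. In 2i/L at passage 10, 9 of the 13 rose and 0 fell (median change 1.38 on the log2 scale, against 0.04 for all genes), where 22.7% of all genes rose and 17.5% fell. At passage 20, 12 rose and 1 fell (median 0.93 against 0.33; 10 and 1 with TMM scaling), where 50.0% of all genes rose and 12.3% fell (32.7% and 31.5% with TMM scaling). Of the 9 that rose at passage 10, 6 (Dub1a, Dub3, Gm2016, Gm8300, Gm13119 and Tmem92) reached 1 CPM in 2i/L libraries alone. They could be in the table only through 2i/L and had to be higher there, so these counts describe the genes measured and support nothing about the list. Gm5662, a predicted gene, went from 0.78 and 0.83 CPM in S/L to 4.53 and 4.41 CPM in 2i/L at passage 10 (1.93 ± 0.25, limma adjusted p = 6.54e-08). Dub3, a deubiquitinase of a multicopy family, rose by 2.13 ± 0.26 (limma adjusted p = 2.43e-08). Pramel6, of the multicopy PRAME-like family, rose by 2.32 ± 0.30 (limma adjusted p = 5.53e-08). Pramel6 reached 1 CPM in 7 libraries, 5 of them 2i/L. It too could be in the table only through 2i/L, so its rise there was in part built in. The gene that fell at passage 20 was Zfp560, a zinc finger gene.

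In PKCi/L 0 of the 13 rose and 6 fell (5 with TMM scaling), and 8 of the 13 were at 0 in both libraries. In a2i/L 1 rose and 3 fell (2 with TMM scaling). Of all genes 5.80% rose and 23.5% fell in PKCi/L, and 10.7% and 17.3% in a2i/L. S/L+PD parted the list: Zscan4c was at 0 there, but Pramef12 went from 11.9 and 11.2 CPM in S/L to 47.4 and 54.7 CPM (2.09 ± 0.17, limma adjusted p = 2.41e-12), Pramel6 from 0 and 0.03 CPM to 2.39 and 1.88 CPM (2.35 ± 0.30, limma adjusted p = 5.77e-08), and Pramel7, which acts in naive pluripotency, by 2.73 ± 0.30 (limma adjusted p = 2.45e-09). These 3 PRAME-like genes rose in S/L+PD, while Gm5662, Tmem92 and Ddit4l fell (Tmem92 by -0.86 ± 0.26, limma adjusted p = 0.00794), 3 and 2 genes with TMM scaling. Pramel7 reached 1 CPM in 4 libraries, 2 of them 2i/L. It could not be in the table without S/L+PD, so its rise there was in part built in. Of all genes 16.4% rose and 19.3% fell in S/L+PD. After the return 11 of the 13 fell against 2i/L and 0 rose (30.3% and 15.8% of all genes), and against S/L at passage 20, 1 rose and 3 fell (0 and 6 with TMM scaling; 32.7% and 6.63% of all genes rose and fell).

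**Figure D3:**
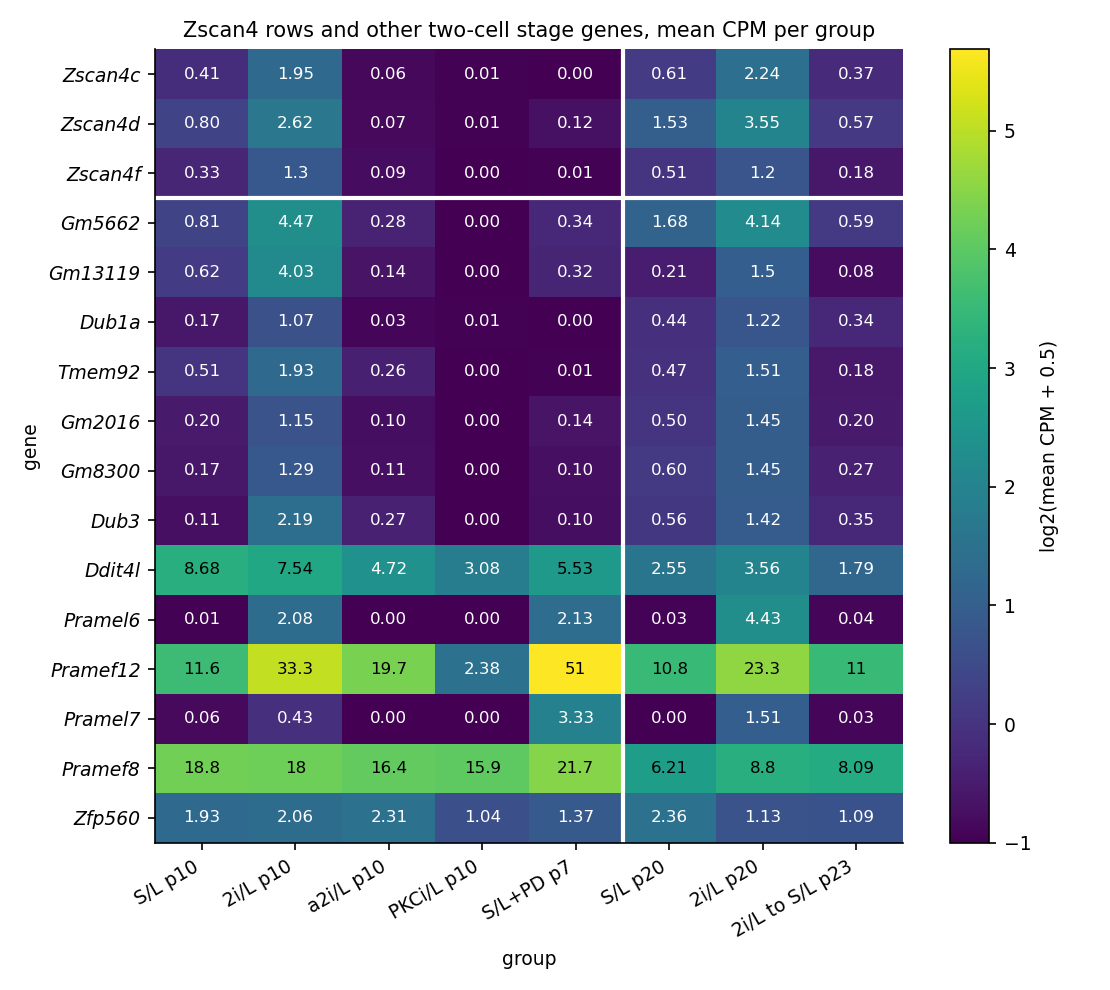
Group mean CPM of the 3 Zscan4 rows (above the white line) and 13 other two-cell stage genes (y axis) in the 8 groups (x axis), with the mean CPM in each cell and colour for log2(mean CPM + 0.5). Rows from Gm5662 to Dub3 are brightest in the 2i/L columns, as the Zscan4 rows are, while Pramel6, Pramef12 and Pramel7 are also bright in S/L+PD (2.13, 51.0 and 3.33 CPM).

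The genes whose pattern was most like that of Zscan4 were ranked by Pearson r with the mean log2 level of the 3 rows over the 19 libraries, after both were centred within the 2 sets of libraries. Among 12032 genes that averaged 1 CPM or more, 7 reached r of 0.9, and Gm5662 was first (r = 0.974, Spearman 0.925). It was followed by Accsl (0.925), Prex2, an activator of Rac (0.923), Tmtc3 (0.919), Slc43a3, a transporter of purine bases (0.917), Rpl10l, a testis copy of a ribosomal protein gene (0.905), and Larp7, which binds the small nuclear RNA 7SK (0.902). The 10 highest also held 5730590G19Rik (0.899) and Tmem20 (0.880). Spearman values of these 8 genes other than Gm5662 were 0.709 to 0.904. Without the 2 libraries farthest from the median Zscan4 level, J-35 and J-37 in 2i/L at passage 20, r was 0.973 for Gm5662 and 0.873 to 0.945 for the other 8 named. Gm5662 followed the Zscan4 rows also within 2i/L at passage 20, with 2.48 CPM in J-34, 5.03 CPM in J-35 and 4.92 CPM in J-37. Accsl and Rpl10l had the 2i/L libraries on top but not the order of the others: Accsl read 9.03 to 10.2 CPM in S/L at passage 10 and 2.67 to 2.96 CPM at passage 20, and its r was 0.623 without centring (Tmtc3 0.402). The lowest r belonged to Socs3, the feedback inhibitor of LIF signalling (-0.923), Arsa, a lysosomal sulfatase (-0.915), and Arhgap29 (-0.907). Socs3 read 19.2 to 34.9 CPM in the 2i/L libraries and 42.5 to 113 CPM in the others, with no overlap.

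**Figure D4:**
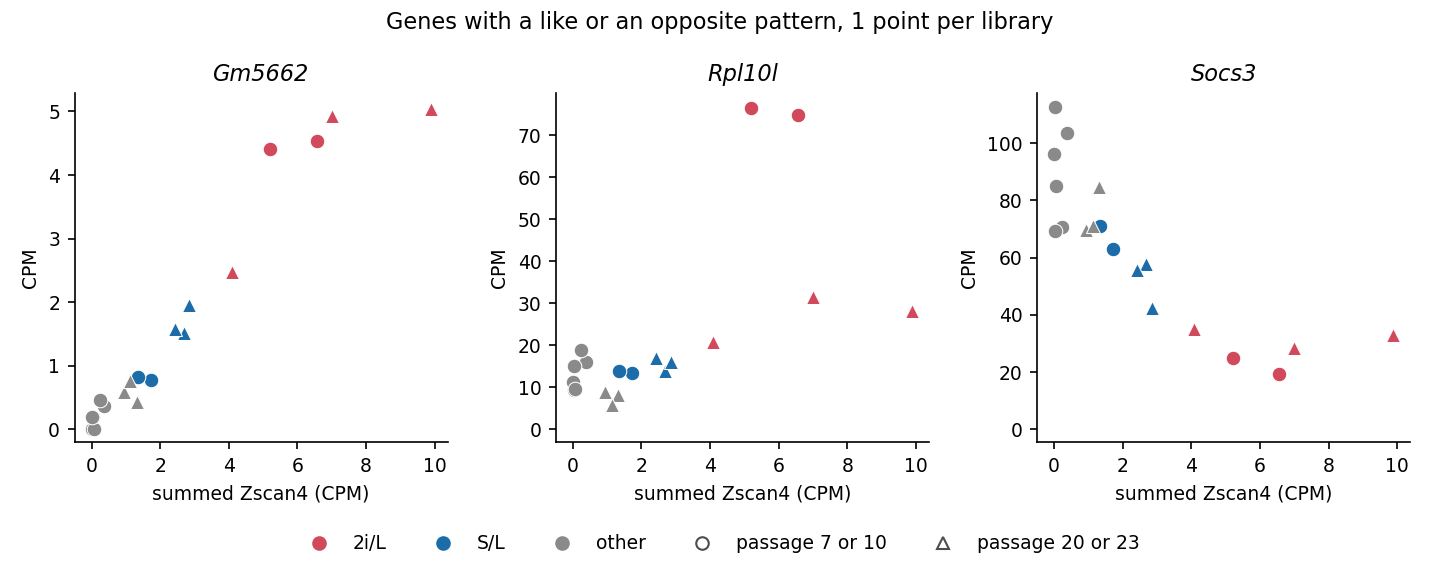
CPM of Gm5662, Rpl10l and Socs3 (y axes) against the summed CPM of the 3 Zscan4 rows (x axes), 1 point per library, coloured by medium, with circles for passages 7 and 10 and triangles for passages 20 and 23. Gm5662 climbs with the sum through all groups, and Rpl10l stands apart in 2i/L at passage 10 (74.8 and 76.5 CPM). Socs3 is lower in 2i/L than in all other libraries. It is lowest in 2i/L at passage 10 (19.2 and 24.9 CPM), while the sum is highest in 2i/L at passage 20.

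With no limit on the mean level, 12939 other genes were ranked, and the first 5 were all on the two-cell list: Gm5662, Gm13119 (r = 0.957), Dub1a (0.949), Tmem92 (0.936) and Gm2016 (0.933). The last 4 of these, and Gm8300 and Dub3, reached 1 CPM in 2i/L libraries alone, so the filter of the table built in a high r with Zscan4 for them, and their places are no finding. Gm8300 was at place 7 and Dub3 at place 15, but Ddit4l was at 443, Pramel6 at 1275 and Pramef12 at 4054, Pramel7 at 5438, Pramef8 at 6580 and Zfp560 at 6594. All of these correlations are over libraries that share media, lines and depth, so they describe a likeness in these 19 libraries.

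Of 7 activators of the two-cell-like state, 4 were measured. In 2i/L 1 rose and 1 fell at passage 10, and 3 rose and 1 fell at passage 20 (2 and 1 with TMM scaling), where 50.0% of all genes rose and 12.3% fell. In a2i/L 0 rose and 2 fell, in PKCi/L 0 and 3, in S/L+PD 1 and 2, and after the return 2 rose and 1 fell against S/L (1 and 2 with TMM scaling). Of all genes 22.7% rose and 17.5% fell in 2i/L at passage 10, and 10.7% and 17.3% in a2i/L. The shares were 5.80% and 23.5% in PKCi/L and 16.4% and 19.3% in S/L+PD. After the return they were 32.7% and 6.63% against S/L (21.8% and 22.3% with TMM scaling). Dppa3 (Stella), a maternal factor of early embryos, rose in 2i/L by 3.08 ± 0.32 at passage 10 (4.65 to 43.4 CPM in the mean, limma adjusted p = 7.38e-10) and by 1.89 ± 0.27 at passage 20 (limma adjusted p = 1.49e-07). It fell in PKCi/L (-1.85 ± 0.32, limma adjusted p = 2.64e-05) and rose in S/L+PD (1.50 ± 0.32, limma adjusted p = 0.000364). The Zscan4 rows were lower in both media, and a link between them and Dppa3 was not tested. Dppa4, which with Dppa2 is known in mouse ESCs to switch on Dux upstream of Zscan4, fell in 2i/L at passage 10 (-1.32 ± 0.15, limma adjusted p = 3.13e-09) and passage 20 (-0.43 ± 0.12, limma adjusted p = 0.00227), and in a2i/L, PKCi/L and S/L+PD. Dppa2 rose in 2i/L at passage 20 (0.39 ± 0.14, limma adjusted p = 0.0138), a call lost with TMM scaling (0.03, limma adjusted p = 0.791), and fell in S/L+PD (-1.83 ± 0.17, limma adjusted p = 3.31e-11) and in a2i/L (-0.98 ± 0.17, limma adjusted p = 2.2e-05). Tbx3, a T-box transcription factor, rose in 2i/L at passage 20, from 35.7 to 61.2 CPM in the mean (0.77 ± 0.15, limma adjusted p = 3.73e-05; 0.41 with TMM scaling, limma adjusted p = 0.0209). At passage 10 it was not called in 2i/L (-0.41 ± 0.18, limma adjusted p = 0.0777). It fell in PKCi/L (-1.11 ± 0.18, limma adjusted p = 1.25e-05) and after the return against S/L (-1.54 ± 0.15, limma adjusted p = 4.4e-10).

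Of 37 repressors of the two-cell-like state, 36 were measured. In 2i/L at passage 10, 0 rose and 4 fell (3 and 8 with TMM scaling; median 0.04, as for all genes), where 22.7% of all genes rose and 17.5% fell. The 4 were Lin28a, an RNA-binding protein (-5.16 ± 0.25, from 75.9 to 1.65 CPM; limma adjusted p = 1.3e-18), the Polycomb subunit Ring1 (-0.96 ± 0.21, limma adjusted p = 0.000273), the acetyltransferase Kat5 and Sumo2. At passage 20, 13 rose and 5 fell (8 and 18 with TMM scaling), where 50.0% of all genes rose and 12.3% fell (32.7% and 31.5% with TMM scaling), with Lin28a at -5.51 ± 0.20 (limma adjusted p = 5.75e-22). In S/L+PD, 1 rose and 11 fell (6 and 12 with TMM scaling), Lin28a among them (-2.20 ± 0.25, limma adjusted p = 4.25e-09). The Zscan4 rows were also lower there, and a link between them and Lin28a was not tested. In a2i/L 0 rose and 7 fell (3 and 8 with TMM scaling), the telomere and heterochromatin factor Rif1 most (-0.65 ± 0.17, limma adjusted p = 0.00364), and in PKCi/L 0 rose and 2 fell (7 and 1 with TMM scaling). Of all genes 16.4% rose and 19.3% fell in S/L+PD, 10.7% and 17.3% in a2i/L, and 5.80% and 23.5% in PKCi/L.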

How the data were processed

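CPM values (counts scaled to library size) were deposited by the authors as 1 table of 12942 genes and 19 libraries, rounded to 2 decimals. Builds NCBIM37 and mm9 and the tools edgeR 3.8.6, HTSeq 0.6.0, STAR 2.3.0, SAMtools 0.1.18.0 and Picard 1.100 are named in the submitters' processing notes. Per the labels, ribosomal RNA was removed and the library kit keeps the strand. No scaling between libraries was visible, and all genes reach 1 CPM in 3 libraries (the lowest third-highest value is 1.01 CPM). Depth, read from the steps between low CPM values, was 33.9 to 45.5 M reads up to passage 10 (10 libraries) and 49.7 to 89.9 M in 6 of the 9 later libraries. Whole reads were not recovered for every column, so no count test was run.

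In R 4.3.3, limma 3.58.1 fitted log2(CPM + 0.5) in 1 model of 8 groups over all 19 libraries, with moderated variances that follow the mean (11 residual degrees of freedom). The Benjamini-Hochberg adjustment ran over all genes in each of 13 comparisons of groups and in the difference of the 2i/L change between passages, with a threshold of 0.05. A filter of 1 CPM in 2 libraries removed no gene. The fit was tested on simulated data. Settings changed in turn were the scaling (TMM, written for this work), the pseudocount (0.1 or 1 CPM), the filter (none), eBayes without trend, only the libraries of the same set, the ESC line as a block and each library left out in turn. The lines are the same cell lines across groups, so their numbers pair libraries. The median r of residuals within a line was 0.019 over 53 pairs (-0.152 to 0.263, 17 above 0.1), against -0.015 over 104 pairs of different lines (12 above 0.1).

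Named genes are the Zscan4 rows, the 10 genes with the highest (1 is not reported here) and the 3 with the lowest r to their mean, the measured genes of the two-cell list, and up to 4 called genes with the largest change per other list and main comparison. The members, lists and comparisons were chosen with earlier results of these data known. Promoters and copy names came from RefSeq and transcripts from GENCODE M21, read with Python 3.11.15 and Biopython 1.88; all 3 symbols matched. RefSeq gives Zscan4d also as an older name of Zscan4c. Every column was mapped to a sample.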

Additional observations from a re-analysis of the deposited data

How the results depend on the processing

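No value of a Zscan4 row that was called turned its direction under any alternative, and both 2i/L comparisons with S/L kept 3 called rows in every fit except one: without the 2i/L library of J-35 at passage 20 Zscan4f was not called (values without 1 library 0.49 to 0.99). Other lost calls lie in the comparisons of a2i/L, PKCi/L, S/L+PD and the return with S/L, and in that of the passages in S/L; in the first 3 of these media the rows rest on 0 to 7 reads a library. Zscan4c in a2i/L was -0.64 with TMM scaling, -0.42 with a pseudocount of 1 CPM and -0.81 to -0.62 without 1 library, none called, so 1 row was called in each of these fits; Zscan4f was -1.39 with a pseudocount of 0.1 CPM and then called. In PKCi/L Zscan4c was -0.47 with 1 CPM and -0.90 to -0.74 without 1 library, and Zscan4f -0.65 with TMM scaling, -0.41 with 1 CPM and -0.77 to -0.70 without 1 library; 1 row was called with 1 CPM, and 1 to 2 without 1 library. In S/L+PD Zscan4c was -0.94 to -0.78 without 1 library, and Zscan4f -0.61 with TMM scaling, -0.39 with 1 CPM and -0.73 to -0.65 without 1 library; 1 to 2 rows were called without 1 library. After the return Zscan4f against S/L was -0.35 with 1 CPM and -0.64 to -0.44 without 1 library, with 1 row called with 1 CPM and 1 to 2 without 1 library. The cause of these losses was not tested, beyond the fewer libraries of a fit that leaves one out; where a group then holds 1 library, it is assumed to vary like the others. The replicate block by line lost the Zscan4f calls in PKCi/L (-0.65) and S/L+PD (-0.60) and changed no other call. From passage 10 to 20, 2 rows were called in S/L with TMM scaling and 0 without the J-35 library of passage 10, and 1 row in 2i/L without the J-34 library of passage 20.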

Other observations

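Among 20 measured telomere genes, 7 rose and 5 fell in 2i/L at passage 10 and 10 rose and 2 fell at passage 20 (7 and 6 with TMM scaling), with medians of 0.03 and 0.29 on the log2 scale, close to those of all genes (0.04 and 0.33). Of all genes 22.7% rose and 17.5% fell at passage 10, and 50.0% and 12.3% at passage 20 (32.7% and 31.5% with TMM scaling), the background for each count given here. Terf1, a shelterin protein that binds telomere repeats, rose by 0.79 ± 0.16 at passage 10 (limma adjusted p = 0.00011) and 0.97 ± 0.13 at passage 20 (limma adjusted p = 6.11e-08). Tert, the catalytic subunit of telomerase, rose by 0.60 at passage 10 (limma adjusted p = 0.00812) and by 1.52 ± 0.15 at passage 20 (limma adjusted p = 9.04e-11), and Tep1, a telomerase-associated protein, fell by 1.72 ± 0.17 on the log2 scale at passage 10 (limma adjusted p = 1.87e-10). Of 15 measured genes of meiotic recombination, 2 rose and 8 fell at passage 10 and 2 rose and 7 fell at passage 20 (1 and 11 with TMM scaling). The cohesin subunit Rec8 (1.44 ± 0.20, limma adjusted p = 2.52e-07) and Hormad1, of the chromosome axis (1.28 ± 0.19, limma adjusted p = 1.04e-06), rose, while the recombinase Dmc1 (-0.99, limma adjusted p = 0.000142) and its partner factor Mnd1 (-1.10 ± 0.20, limma adjusted p = 1.81e-05) fell.

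The 18 other Zscan and Zkscan genes measured share domains with Zscan4. In 2i/L at passage 10, 3 rose and 2 fell (5 and 3 with TMM scaling), where 22.7% of all genes rose and 17.5% fell. At passage 20, 9 rose and 3 fell (5 and 4 with TMM scaling), where 50.0% of all genes rose and 12.3% fell, so the counts there lie near the background. Zscan5b had the largest rise in 2i/L, with 0.45 CPM in S/L and 2.12 CPM in 2i/L at passage 10 (1.46 ± 0.26, limma adjusted p = 1.44e-05) and 0.417 and 3.51 CPM at passage 20 (2.10 ± 0.21, limma adjusted p = 9.49e-11). Outside 2i/L, Zscan5b reached 1 CPM only in the 2 libraries of S/L+PD. It could therefore be in the table only through 2i/L, and its rise there was in part built in. In S/L+PD, where the Zscan4 rows were near 0, it rose to 2.10 CPM (1.46 ± 0.26, limma adjusted p = 1.96e-05). Zscan10, a pluripotency factor, fell in 2i/L (-0.66 ± 0.16, limma adjusted p = 0.00117 at passage 10).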
